A study of Mus musculus with 6 samples.

Results

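The genes described here encode the collagens, the laminin chains and other proteins of the basement membrane, together with fibronectin and enzymes that fold and modify collagen chains. They were chosen by symbol: every collagen (Col) and laminin (Lama, Lamb, Lamc) gene, and Nid1, Nid2, Sparc, Hspg2, Agrn, Fn1, Serpinh1, P4ha1, P4ha2, Plod1, Plod2 and Plod3. This gave 67 of the 23244 loci, of which 24 are basement membrane genes, 11 fibrillar collagens, 26 other collagens with fibronectin, and 6 collagen synthesis genes. RNA of mouse embryonic stem (ES) cells was sequenced after ribosomal RNA depletion. The 6 libraries formed 2 groups of 3: a subcloned Zscan10-null ES cell line, and ES cells carrying a floxed Zscan10 that had not been deleted, in which the gene is flanked by loxP sites for removal by Cre. The control titles carry the mark -Tx, whose meaning the labels do not give. Because the null line is a subclone, genotype, clone and any difference in treatment cannot be told apart. Whether replicates were grown as independent cultures is not stated, and a p-value here reflects only how much these 3 libraries per group vary, which may be technical variation.

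Basement membranes are thin sheets of matrix on which epithelial cells sit, and they are the first matrix made by the mammalian embryo. Laminins, trimers of an alpha, a beta and a gamma chain, form one network, collagen IV forms another, and nidogens, perlecan and agrin join them to each other and to the cell. Fibrillar collagens form the rope-like fibres of connective tissue, and most are made by mesenchymal cells rather than ES cells. Collagen chains are hydroxylated and folded in the endoplasmic reticulum before they are secreted.

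Values are FPKM, fragments per locus scaled to its length and to the depth of the library, so levels of different genes may be set side by side. Zscan10 itself was at 5.49, 4.43 and 5.47 FPKM in null libraries and at 44.2, 43.0 and 41.9 FPKM in control libraries (log2 fold change -2.85, SE 0.08, limma adjusted p = 2.88e-06). From the steps between low values, the depth was about 8190000 to 9070000 fragments in null and 8270000 to 9040000 fragments in control libraries. Of the 9 ES cell markers listed, all reached the minimum for testing. Esrrb (limma adjusted p = 0.00941) and Zfp42 (0.0188) fell and 0 rose, where 12.4% of all tested loci fell and 12.8% rose. Without null replicate 1, 4 of the markers fell. With a replicate block, or without control replicate 1, control replicate 3 or null replicate 3, 1 fell. The summed FPKM of the 9 markers ran from 2332 to 2538 in null and from 2575 to 2612 in control libraries. Every null sum lay below every control sum.

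A gene was tested by limma on log2(FPKM + 1) if its mean over the 6 libraries was at least 1 FPKM. Among the matrix genes 28 of 67 reached this minimum: 14 basement membrane genes, 5 fibrillar collagens, 3 of the other collagens and fibronectin, and 6 synthesis genes. At an adjusted p of 0.05 over all 11480 tested loci, 4 of the 28 rose in null cells and 12 fell. Over all tested loci 12.8% rose and 12.4% fell, 25.2% in all. The median log2 fold change was -0.22 over the 28 genes and -0.003 over all loci. The values of the null and control libraries did not overlap for 23 of the 28 genes, against 44.1% of all tested loci. For every gene called, an exact two-sided permutation test of its 6 FPKM values gave p = 0.1, the smallest that 3 against 3 libraries allow. The genes and groups had been chosen with earlier results of these libraries known, so these counts are a description.

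**Figure D1:**
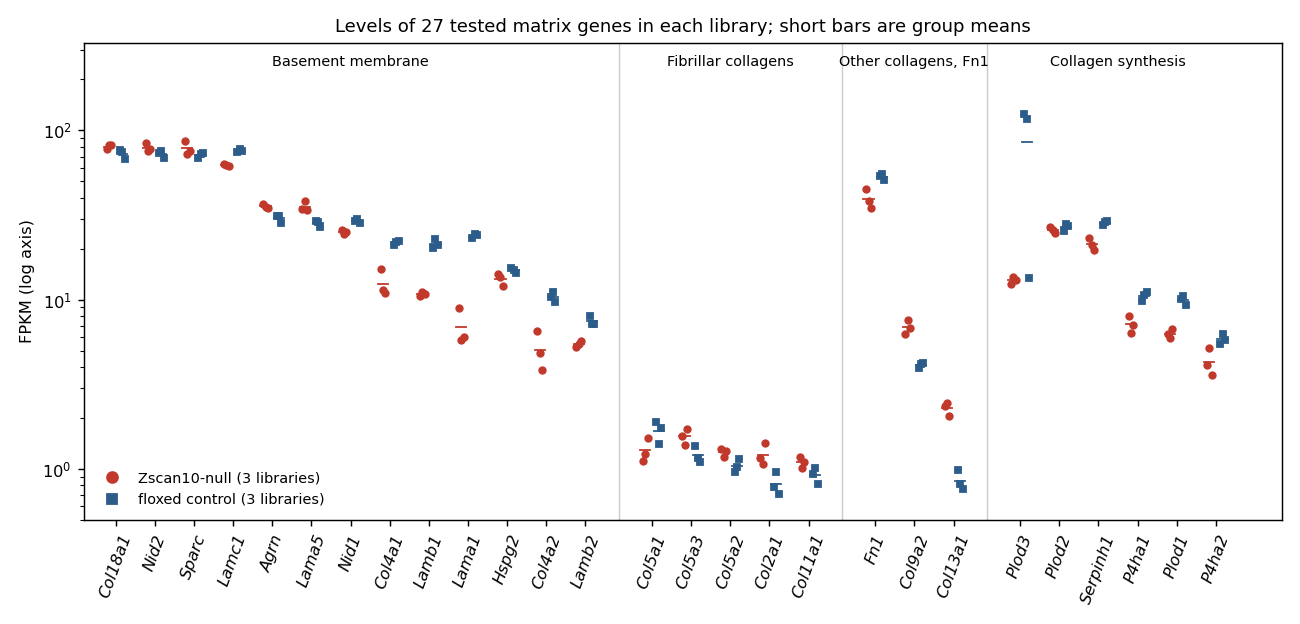
FPKM (log axis) of 27 of the 28 tested matrix genes in each library, by role, with the 3 null libraries (circles) left of the 3 control libraries (squares) and group means as short bars. Lama1, Lamb1, Col4a1 and Col4a2 sit apart in the groups, while the fibrillar collagens lie near 1 FPKM in both, and Plod3 has 2 control libraries far above the other 4 libraries.

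**Figure D2:**
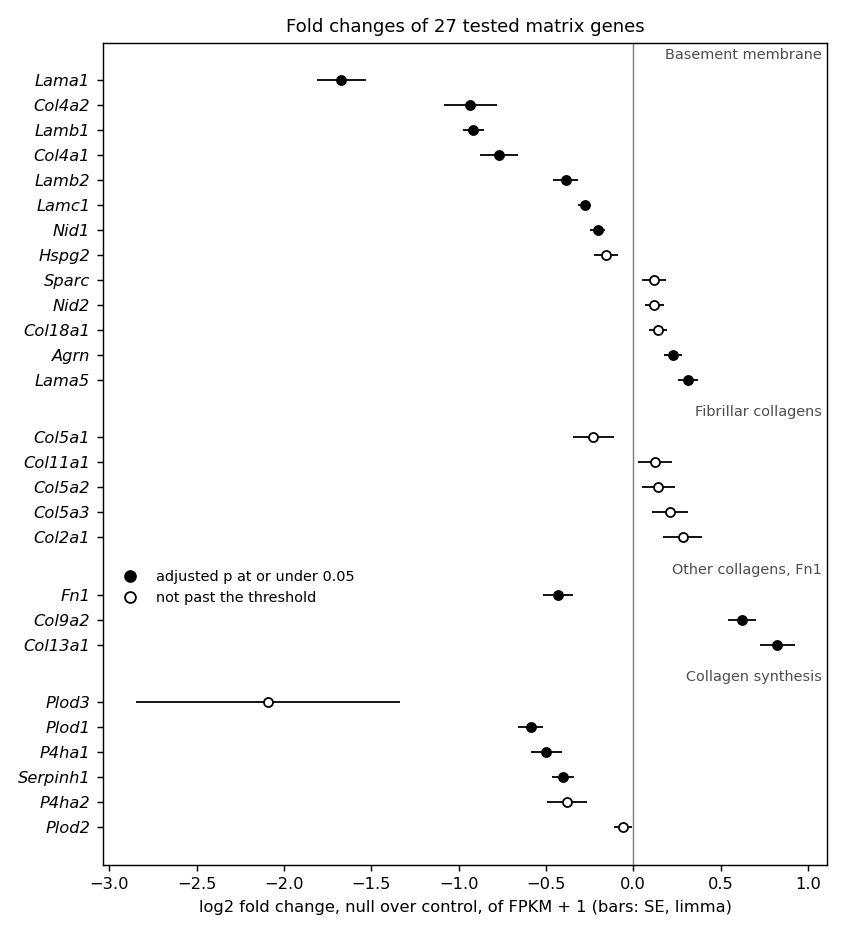
Log2 fold change of FPKM + 1, null over control, with its SE from limma, for the same 27 genes. Filled points passed an adjusted p of 0.05; they run from -1.67 for Lama1 to 0.82 for Col13a1, and no fibrillar collagen is filled.

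Promoter windows of genes on which the results turn are shown here so that the pair that shares a promoter and the genes that moved apart can be compared. Each is a RefSeq window on GRCm38.p6 (mm10), 250 bases before to 50 after an annotated start, written 5′ to 3′ on the gene's strand. Capitals mark exact matches on either strand to the GC box letters GGGCGG, the CCAAT box letters CCAAT and the TATA box letters TATAAA. Lamb1 (chr12:31265043-31265342, plus strand) and Lama5 (chr2:180225810-180226109, minus strand) encode laminin chains of which the first fell and the other rose. Col4a1 (chr8:11312777-11313076, minus strand) and Col4a2 (chr8:11312555-11312854, plus strand) lie head to head, and Col1a2 (chr6:4505368-4505667, plus strand) is the fibrillar collagen with the most negative log2 fold change when tested without a minimum level.
Lamb1: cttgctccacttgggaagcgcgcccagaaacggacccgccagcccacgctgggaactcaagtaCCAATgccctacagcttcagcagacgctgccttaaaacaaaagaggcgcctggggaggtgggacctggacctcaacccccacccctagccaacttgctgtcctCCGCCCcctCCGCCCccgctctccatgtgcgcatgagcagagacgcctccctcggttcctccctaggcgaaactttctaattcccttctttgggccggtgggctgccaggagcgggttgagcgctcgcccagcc
Lama5: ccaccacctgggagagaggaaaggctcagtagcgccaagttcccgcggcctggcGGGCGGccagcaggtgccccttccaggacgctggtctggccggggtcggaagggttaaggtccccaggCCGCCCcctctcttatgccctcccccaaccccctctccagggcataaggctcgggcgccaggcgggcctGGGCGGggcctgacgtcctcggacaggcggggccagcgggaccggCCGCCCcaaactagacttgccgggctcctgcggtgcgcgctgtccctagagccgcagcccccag
Col4a1: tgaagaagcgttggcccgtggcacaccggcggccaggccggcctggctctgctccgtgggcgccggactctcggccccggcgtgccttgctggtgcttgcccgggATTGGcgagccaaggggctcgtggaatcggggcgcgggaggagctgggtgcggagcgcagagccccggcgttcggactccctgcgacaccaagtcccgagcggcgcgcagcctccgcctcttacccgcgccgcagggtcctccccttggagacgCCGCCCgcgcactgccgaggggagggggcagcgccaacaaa
Col4a2: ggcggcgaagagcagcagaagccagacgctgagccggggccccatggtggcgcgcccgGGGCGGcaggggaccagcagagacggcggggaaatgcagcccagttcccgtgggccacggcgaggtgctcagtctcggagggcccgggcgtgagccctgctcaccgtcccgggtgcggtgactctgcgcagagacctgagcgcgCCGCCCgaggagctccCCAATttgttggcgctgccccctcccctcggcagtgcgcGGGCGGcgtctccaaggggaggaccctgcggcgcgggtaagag
Col1a2: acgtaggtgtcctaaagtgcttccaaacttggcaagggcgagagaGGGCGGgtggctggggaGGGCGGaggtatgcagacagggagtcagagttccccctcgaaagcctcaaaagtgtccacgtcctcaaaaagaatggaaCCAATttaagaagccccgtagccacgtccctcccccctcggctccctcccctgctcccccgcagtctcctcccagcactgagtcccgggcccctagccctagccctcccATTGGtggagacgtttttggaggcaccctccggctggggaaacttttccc
The Col4a1 and Col4a2 windows cover the same 78 bases (chr8:11312777-11312854) on opposite strands, with their annotated starts 21 bases apart and 1 GC box match inside the shared stretch. The windows held 2 GC box matches for Lamb1, 4 for Lama5, 1 for Col4a1, 3 for Col4a2 and 2 for Col1a2. A CCAAT match was found once in the windows of Lamb1, Col4a1 and Col4a2, 2 times in that of Col1a2 and not in that of Lama5, and these 5 windows held no TATAAA. Over all 32851 promoter windows, 35.7% held a GC box match, 37.4% a CCAAT match and 13.6% a TATAAA match. Of 54 windows found for 49 of the matrix genes, 34 held a GC box match, 16 a CCAAT match and 7 a TATAAA match. Lama1 and Col1a1 have no entry in the table.

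The laminin alpha chains moved in opposite directions. Lama1 (chr17:67697127-67822645), the alpha chain of the laminin laid down in the earliest embryonic basement membranes, was at 8.96, 5.76 and 6.03 FPKM in null libraries and at 23.0, 24.6 and 24.0 FPKM in control libraries. Each null library lay far below each control library, with null replicate 1 the highest of the null libraries. Its log2 fold change was -1.67 (SE 0.14, limma adjusted p = 5.52e-04), and only 26 of the 11480 tested loci had a more negative one. In bulk libraries such as these, fewer cells of a type and less RNA per cell cannot be told apart. Lama5 (chr2:180176373-180225904), the alpha chain of a laminin known to support ES cell attachment, was at 34.2, 38.1 and 34.0 FPKM in null libraries and at 29.2, 28.7 and 26.9 FPKM in control libraries. The groups did not overlap, and the log2 fold change was 0.31 (SE 0.06, limma adjusted p = 0.00935).

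Set side by side, these levels changed the make-up of the alpha chain transcripts. Lama1 made up 15.7 ± 3.92% of the summed FPKM of the 5 alpha chain genes in null libraries and 44.8 ± 1.51% in control libraries (mean ± SD, n = 3 each). Lama5 was 5.35 ± 1.42 times as high as Lama1 in null libraries and 1.19 ± 0.0758 times as high in control libraries. The summed alpha chains were at 44.0 ± 1.82 FPKM in null and 53.2 ± 1.36 FPKM in control libraries. No null library overlapped a control library in any of these quantities.

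**Figure D3:**
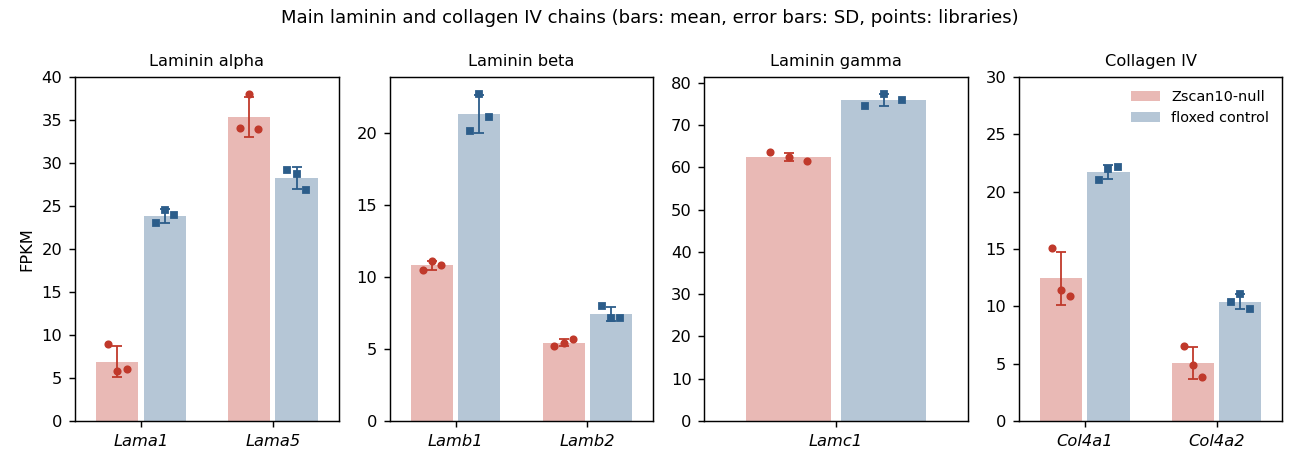
FPKM of the main laminin and collagen IV chain genes, null left of control, with bars at the mean, error bars at 1 SD and a point per library. Lama1, Lamb1, Col4a1 and Col4a2 are lower in all 3 null libraries, Lamc1 is lower by less, and Lama5 is higher.

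The other alpha chain genes were low. Lama3 was at 1.12 ± 0.162 FPKM in null and 0.770 ± 0.0970 FPKM in control libraries, just under the minimum. Its groups did not overlap, but it did not pass in a fit without a minimum (limma adjusted p = 0.110). Lama4 was at 0.312, 0.281 and 0.513 FPKM in null libraries and at 0.225, 0.282 and 0.185 FPKM in control libraries, which overlap. Lama2, the alpha chain of muscle basement membranes, stayed under 0.2 FPKM in each library.

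Both tested beta chain genes fell. Lamb1 (chr12:31265146-31329644), the beta chain that both the alpha1 and the main alpha5 laminin contain, was at 10.5, 11.1 and 10.8 FPKM in null libraries and at 20.1, 22.7 and 21.1 FPKM in control libraries. The null libraries lay close together at about 0.508 times the control mean (log2 fold change -0.92, SE 0.06, limma adjusted p = 2.08e-04). Lamb2 (chr9:108479847-108490530), which can replace it in the trimer, was at 5.22, 5.43 and 5.68 FPKM in null libraries and at 7.97, 7.16 and 7.18 FPKM in control libraries. It fell by less, with a log2 fold change of -0.39 (SE 0.07, limma adjusted p = 0.00746). Lamb1 therefore made up 64.8 ± 0.560% of the beta chain FPKM in null and 72.8 ± 1.91% in control libraries. Lamb3, a chain of skin laminin, was under the minimum at 0.442 ± 0.0693 FPKM in null and 0.522 ± 0.156 FPKM in control libraries, which overlap.

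Among the gamma chains, Lamc1 (chr1:153218922-153332786), common to most laminins, was at 63.5, 62.4 and 61.5 FPKM in null libraries and at 74.6, 77.5 and 75.9 FPKM in control libraries. It fell by a small amount, with tight groups that did not overlap (log2 fold change -0.28, SE 0.04, limma adjusted p = 0.00208). Lamc3 was at 0 in 5 libraries and at 1 fragment in null replicate 1.

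Col4a1 (chr8:11198423-11312889) and Col4a2 (chr8:11312805-11449287), the chains of the collagen IV found in nearly all basement membranes, fell together. Col4a1 was at 15.1, 11.4 and 10.9 FPKM in null libraries and at 21.0, 22.0 and 22.1 FPKM in control libraries (log2 fold change -0.77, SE 0.11, limma adjusted p = 0.00334). Col4a2 was at 6.51, 4.84 and 3.81 FPKM in null libraries and at 10.4, 11.1 and 9.73 FPKM in control libraries (-0.93, SE 0.15, limma adjusted p = 0.00528). For each gene the null libraries lay below the control libraries, with null replicate 1 nearest to them. Without that library the log2 fold changes were -1.85 for Lama1, -0.90 for Col4a1 and -1.10 for Col4a2. The ratio of Col4a1 to Col4a2 was 2.51 ± 0.30 in null and 2.09 ± 0.156 in control libraries. The annotated exons of the pair share bases on opposite strands, and the labels do not say whether reads were counted by strand, so fragments from that overlap could be given to either gene. The remaining 4 collagen IV genes, Col4a3 to Col4a6, were all under the minimum, and of these Col4a5 was the highest at 0.204 ± 0.0903 FPKM in null and 0.235 ± 0.0194 FPKM in control libraries.

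The proteins that link the networks did not move one way. Nid1 (chr13:13437602-13512275), a nidogen that bridges laminin and collagen IV, was at 25.9, 24.4 and 25.0 FPKM in null libraries and at 29.1, 29.8 and 28.4 FPKM in control libraries, a fall of small size (log2 fold change -0.20, SE 0.04, limma adjusted p = 0.0151). The call was lost without control replicate 1 (0.0541) or control replicate 2 (0.0606). Nid2, its paralogue, was at 84.6, 75.8 and 77.2 FPKM in null libraries and at 73.6, 75.5 and 69.0 FPKM in control libraries and did not pass (log2 fold change 0.12, limma adjusted p = 0.149). Agrn (chr4:156165290-156197533), a heparan sulfate proteoglycan that binds laminin and dystroglycan, rose: it was at 36.5, 35.4 and 34.9 FPKM in null libraries and at 31.2, 31.3 and 28.4 FPKM in control libraries (log2 fold change 0.23, SE 0.05, limma adjusted p = 0.0172). Hspg2, the perlecan gene, was at 14.3, 13.5 and 12.0 FPKM in null libraries and at 15.4, 14.9 and 14.4 FPKM in control libraries, and did not pass (-0.16, limma adjusted p = 0.138).

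Sparc, a matrix protein that binds collagen, and Col18a1, the collagen of basement membranes that carries heparan sulfate, were with Nid2 the basement membrane genes with the highest mean over all 6 libraries, although in control libraries alone Lamc1 was higher. Sparc was at 86.7, 72.4 and 75.5 FPKM in null libraries and at 68.7, 73.0 and 73.4 FPKM in control libraries, which overlap. Col18a1 was at 77.2, 81.8 and 81.7 FPKM in null libraries and at 76.3, 74.2 and 67.5 FPKM in control libraries, without overlap but also without passing (log2 fold change 0.14, limma adjusted p = 0.0927). Col15a1, related to Col18a1, was near 0, with 1 fragment in the null and 3 in the control libraries. Of the 14 tested basement membrane genes, 2 rose and 8 fell, where 12.8% of all tested loci rose and 12.4% fell. The summed FPKM of the basement membrane genes was 454 ± 16.3 in null and 484 ± 12.4 in control libraries, and these sums overlap between the groups.

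The 5 tested fibrillar collagens, Col2a1, Col5a1, Col5a2, Col5a3 and Col11a1, had group means from 0.817 to 1.68 FPKM. Limma called 0 of them, against 25.2% of all tested loci. At an unadjusted p under 0.05, 1 was higher and 0 were lower. Col2a1, the cartilage collagen, was at 1.16, 1.07 and 1.42 FPKM in null libraries and at 0.785, 0.954 and 0.713 FPKM in control libraries. These values do not overlap, but the gene did not pass (log2 fold change 0.28, limma adjusted p = 0.103; 0.0489 without a mean-variance trend). Col5a3 and Col5a2, chains of the collagen that regulates fibre diameter, were at 1.56 ± 0.177 and 1.25 ± 0.0660 FPKM in null libraries and at 1.21 ± 0.137 and 1.04 ± 0.0963 FPKM in control libraries. Col5a1, their partner, was at 1.29 ± 0.211 FPKM in null and 1.68 ± 0.245 FPKM in control libraries. Col11a1, a minor cartilage collagen, was at 1.09 ± 0.0808 FPKM in null and 0.919 ± 0.0976 FPKM in control libraries. None of these 4 passed, and the groups overlapped for Col5a1 and Col11a1.

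Below the minimum, the chains of collagen I, the main collagen of skin and bone, stood apart. Col1a2 (chr6:4505618-4541543) was at 0.0492, 0.111 and 0.0728 FPKM in null libraries and at 0.921, 1.31 and 1.17 FPKM in control libraries. Col1a1 (chr11:94936224-94953042) was at 0.0540, 0.0975 and 0.107 FPKM in null libraries and at 0.826, 0.587 and 0.802 FPKM in control libraries. The lowest control library lay several times above the highest null library for each gene.

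At low FPKM the values of a gene, times the depth of the library, are whole multiples of what 1 fragment is worth, which gives the fragments behind them. For Col1a2 these were 2, 5 and 3 fragments in null libraries and 38, 59 and 48 in control libraries. For Col1a1 they were 2, 4 and 4 in null libraries and 31, 24 and 30 in control libraries. Corrected for depth, the null level was 0.0691 times the control level for Col1a2 (95% exact interval 0.0325 to 0.131) and 0.118 times for Col1a1 (0.0546 to 0.228). The intervals cover counting error only. In a limma fit without a minimum, in which 6.54% of 18476 loci fell, both fell, with adjusted p = 0.00149 for Col1a2 and 0.00267 for Col1a1. With a pseudocount of 0.1 in that fit, 7.32% of the loci rose and 6.68% fell, and both genes fell again (limma adjusted p = 0.00123 for Col1a2 and 0.00272 for Col1a1).

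Col3a1, which often forms mixed fibres with collagen I, did not share this pattern. It had 6, 36 and 14 fragments in null libraries and 22, 16 and 12 in control libraries, and the null libraries spread over both sides of the control ones. Col27a1 was at 0.429 ± 0.00553 FPKM in null and 0.556 ± 0.101 FPKM in control libraries without passing in the fit without a minimum (limma adjusted p = 0.299). Col11a2 and Col24a1 stayed under 0.2 FPKM in every library.

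**Figure D4:**
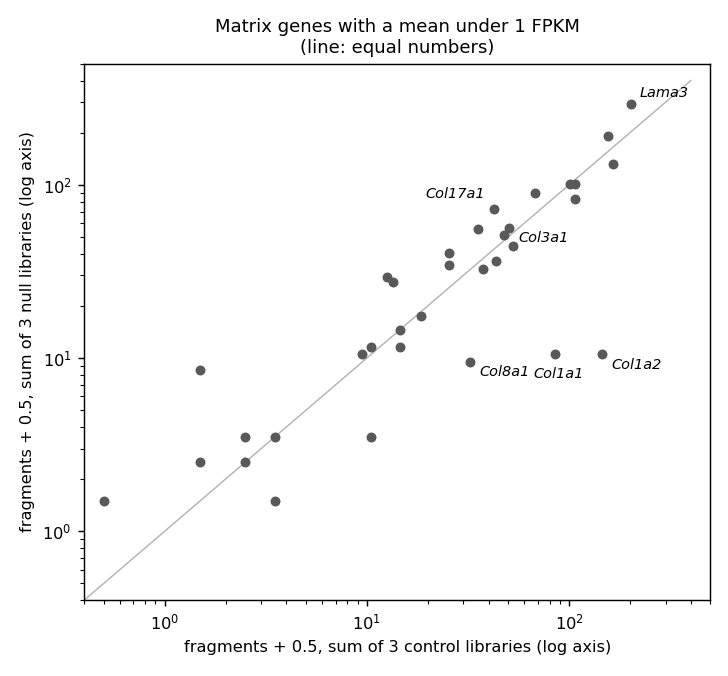
Fragments summed over the 3 null libraries (vertical) and the 3 control libraries (horizontal), each plus 0.5 and on log axes, for the 34 matrix genes under the minimum whose fragments could be read from the steps. Col1a1 and Col1a2 lie far below the line of equal numbers with 10 null fragments each, and Col8a1 lies below it with 9, while Col3a1 lies near it.

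Among the other collagens, the only tested genes were Col9a2 and Col13a1, and both rose, against 12.8% of all tested loci. Col13a1 (chr10:61838234-61979206), a transmembrane collagen, was at 2.34, 2.44 and 2.05 FPKM in null libraries and at 0.978, 0.816 and 0.759 FPKM in control libraries. Its null mean was 2.68 times the control mean (log2 fold change 0.82, SE 0.10, limma adjusted p = 0.00183), and its control level alone lay below the minimum. Col9a2 (chr4:121039566-121055325), a chain of the collagen that decorates cartilage fibres, was at 6.26, 7.55 and 6.84 FPKM in null libraries and at 3.96, 4.15 and 4.21 FPKM in control libraries. The groups were well apart (log2 fold change 0.62, SE 0.08, limma adjusted p = 0.00224). The other chains of the same collagen were lower: Col9a3 was at 0.747 ± 0.218 FPKM in null and 0.693 ± 0.0756 FPKM in control libraries, and Col9a1 at 0.117 ± 0.0399 and 0.107 ± 0.0524 FPKM in the same order.

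Fn1 (chr1:71585473-71653280), fibronectin, the adhesive glycoprotein bound by integrins, fell. It was at 45.0, 38.1 and 34.9 FPKM in null libraries and at 53.4, 55.1 and 50.8 FPKM in control libraries, with every null library below every control library (log2 fold change -0.43, SE 0.09, limma adjusted p = 0.0127).

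Of the 39 matrix genes under the minimum, 21 had a group mean of at least 0.2 FPKM and 18 were lower still, with group means of at most 0.188 FPKM. Null and control values were fully apart for 7 of the 21, 3 higher and 4 lower, against 25.4% of all loci in the same range of levels. The 3 higher ones were Lama3, Col16a1 and Col17a1. Col17a1, a collagen of hemidesmosomes, had 21, 26 and 25 fragments in null libraries and 12, 18 and 12 in control libraries, and its adjusted p without a minimum was 0.0513. Col16a1 had 7, 13 and 9 fragments in null libraries and 1, 4 and 7 in control libraries (adjusted p = 0.151).

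The 4 lower ones were Col1a1, Col1a2, Col8a1 and Col27a1. Col8a1, a short-chain collagen of vessel walls and cornea, had 0, 5 and 4 fragments in null libraries and 7, 11 and 14 in control libraries, and did not pass without a minimum (limma adjusted p = 0.075). Col8a2, its partner chain, had 100 fragments in each group. The collagens Col6a2, Col6a4, Col6a5, Col7a1, Col12a1, Col20a1, Col22a1 and Col26a1 overlapped between the groups, with group means from 0.163 to 0.823 FPKM. The Col7a1 locus also holds the microRNA gene Mir711, which shares its value. Only Col1a1 and Col1a2 of the 39 passed in the limma fit without a minimum, in which 13.9% of 18476 loci passed.

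Of the 6 collagen synthesis genes 3 fell and 0 rose, where 12.4% of all tested loci fell and 12.8% rose. Serpinh1 (chr7:99345375-99353239), the collagen chaperone HSP47, was at 23.2, 21.1 and 19.7 FPKM in null libraries and at 27.7, 28.7 and 29.1 FPKM in control libraries (log2 fold change -0.40, SE 0.06, limma adjusted p = 0.00472). P4ha1 (chr10:59323197-59373304), a catalytic subunit of collagen prolyl hydroxylase, was at 8.03, 6.33 and 7.09 FPKM in null libraries and at 9.79, 10.6 and 11.1 FPKM in control libraries (-0.50, SE 0.09, limma adjusted p = 0.00747). Plod1 (chr4:147909753-147936776), a lysyl hydroxylase, was at 6.26, 5.97 and 6.69 FPKM in null libraries and at 10.1, 10.5 and 9.31 FPKM in control libraries (-0.59, SE 0.07, limma adjusted p = 0.00178). For these 3 genes each null library lay below each control library.

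P4ha2, the paralogue of P4ha1, was at 4.10, 5.17 and 3.58 FPKM in null libraries and at 5.49, 6.26 and 5.74 FPKM in control libraries. Its groups did not overlap, and it fell just short of the threshold (log2 fold change -0.38, SE 0.12, limma adjusted p = 0.0502). It lies on chromosome 11, where the median log2 fold change of 941 tested loci was -0.12. Plod2, the lysyl hydroxylase of collagen telopeptides, overlapped between the groups at 25.8 ± 1.03 FPKM in null and 26.9 ± 1.22 FPKM in control libraries (limma adjusted p = 0.429). At an unadjusted p under 0.05, 0 of the 6 synthesis genes were higher and 5 were lower. The 5 include the Plod3 locus (limma unadjusted p = 0.0262), whose control libraries disagree, as described next. The share of all tested loci at an unadjusted p under 0.05 was not counted, here or for the other groups and lists.

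The Plod3 locus, which also holds the microRNA gene Mir702, was at 12.4, 13.6 and 13.1 FPKM in null libraries and at 125, 117 and 13.5 FPKM in control libraries. Control replicates 1 and 2 stood far above the other 4 libraries, and control replicate 3 was within the range of the null libraries. It was not called (limma adjusted p = 0.0822), but without control replicate 3 it was (3.70e-06). The value is of the locus, and how much of it belongs to Plod3 or to Mir702 was not tested. The annotated exons of Plod3 also share bases with Znhit1 on the opposite strand, and the labels do not say whether reads were counted by strand. The summed FPKM of the other 5 synthesis genes was 64.9 ± 3.32 in null and 81.7 ± 2.74 in control libraries.

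Genes that act on or bind this matrix were counted from lists that are no part of the 67. The share of all tested loci that rose was 12.8%, and 12.4% fell. In the list of collagen maturation and secretion 17 of 23 genes were tested, 1 rose and 7 fell, with a median log2 fold change of -0.17. P4hb, the protein disulfide isomerase that is the beta subunit of prolyl hydroxylase, was at 193 ± 3.47 FPKM in null and 251 ± 4.24 FPKM in control libraries (log2 fold change -0.38, limma adjusted p = 6.00e-04). Pcolce2, an enhancer of procollagen cleavage, was at 16.5 ± 1.20 FPKM in null and 22.7 ± 0.934 FPKM in control libraries. Creb3l2, a transcription factor of the secretory pathway in cartilage, was at 0.928 ± 0.0849 FPKM in null and 2.02 ± 0.405 FPKM in control libraries. The gene that rose was Adamts14, a procollagen N-proteinase, at 3.51 ± 0.314 FPKM in null and 2.55 ± 0.241 FPKM in control libraries (log2 fold change 0.35, limma adjusted p = 0.0317). It was no longer called without a minimum, or without control replicate 1, control replicate 2, null replicate 2 or null replicate 3. The number that fell was 4 without control replicate 2, and 5 without chromosome 11, on which P4hb and Leprel4, both among the 7, lie.

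In the list of basement membrane partners 9 of 24 genes were tested and 5 fell, with a median log2 fold change of -0.24. Of all tested loci 12.4% fell. None rose by limma, also at an unadjusted p under 0.05, where 0 were higher and 5 lower. The number that fell was 3 without any 1 library other than null replicate 2, without which it was 4, and 1 with a minimum of 5 FPKM. Gpc3, a cell surface heparan sulfate proteoglycan, was at 7.51 ± 1.11 FPKM in null and 15.1 ± 0.451 FPKM in control libraries (log2 fold change -0.93, limma adjusted p = 0.00113). Thbs1, thrombospondin, was at 2.99 ± 0.730 FPKM in null and 6.04 ± 0.533 FPKM in control libraries (-0.83). Frem2, a protein of the embryonic sublaminal matrix, was at 2.21 ± 0.50 FPKM in null and 4.08 ± 0.131 FPKM in control libraries (-0.67), and Ltbp1, which binds latent TGF-beta, was at 1.47 ± 0.157 and 2.21 ± 0.155 FPKM in the same order.

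Of 23 matrix receptors 20 were tested, 7 rose and 3 fell, with a median log2 fold change of 0.02. Of all tested loci 12.8% rose and 12.4% fell. The number that rose was 4 without control replicate 1, control replicate 2 or null replicate 3. Sdc4, a syndecan that acts with integrins on fibronectin, was at 70.5 ± 3.25 FPKM in null and 37.1 ± 1.70 FPKM in control libraries (log2 fold change 0.91, limma adjusted p = 1.16e-04). Itga5, the alpha subunit of the main fibronectin receptor, was at 22.1 ± 0.289 FPKM in null and 15.2 ± 1.13 FPKM in control libraries (0.51), and Itga1, of a collagen and laminin receptor, at 2.40 ± 0.134 and 1.03 ± 0.154 FPKM in the same order (0.75). Itga9 fell, at 4.06 ± 1.41 FPKM in null and 9.64 ± 0.649 FPKM in control libraries (-1.10). In the list of crosslinking and remodelling 12 of 20 genes were tested and 2 fell, Mmp11 and Mmp14, against 12.4% of all tested loci. The median log2 fold change of the list was -0.03. None rose by limma, and at an unadjusted p under 0.05, 0 were higher and 3 lower. Only 1 fell under median centring, quantile normalization, a replicate block or a minimum of 5 FPKM, without chromosome 11, and without null replicate 2 or any control library. Mmp11, a matrix metalloproteinase, was at 12.6 ± 0.615 FPKM in null and 16.9 ± 1.24 FPKM in control libraries. Mmp14, a membrane-bound one, was at 5.15 ± 0.665 FPKM in null and 6.53 ± 0.0873 FPKM in control libraries (limma adjusted p = 0.0486).

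**Figure D5:**
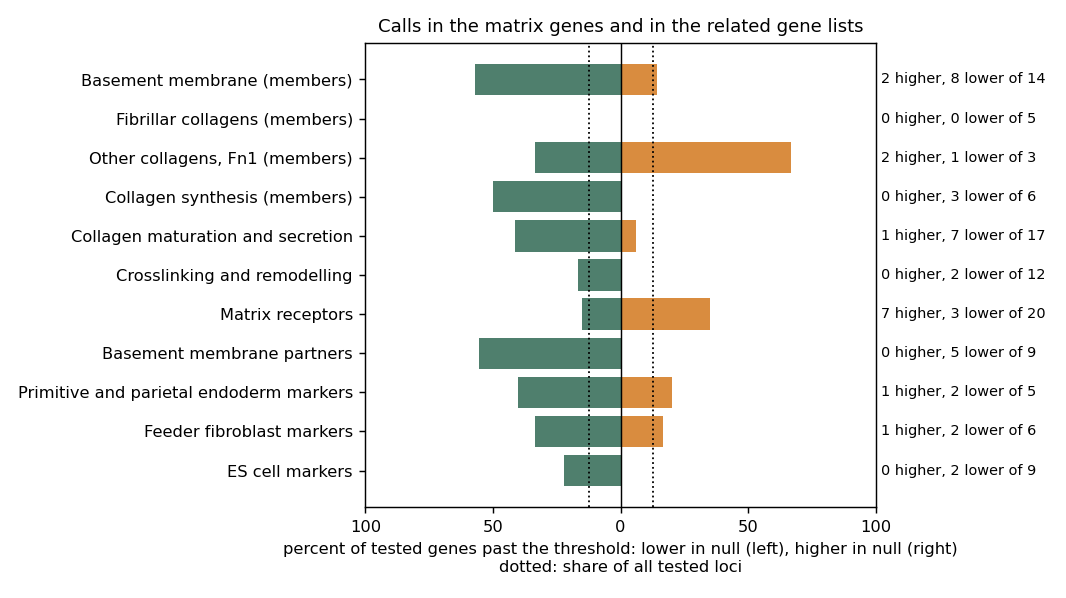
Percent of the tested genes of each group of matrix genes and each related list that passed the threshold, lower in null to the left and higher to the right, with dotted lines at the 12.4% and 12.8% of all tested loci. Of the basement membrane genes 8 of 14 were lower, of their partners 5 of 9, and of the matrix receptors 7 of 20 were higher.

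Laminin alpha1 and collagen IV are also made in large amounts by primitive and parietal endoderm, cell types that arise at a low rate in ES cultures. A list of endoderm markers was read in the same libraries. It also holds genes of visceral endoderm, such as Cubn, so its count and sum are not of primitive and parietal endoderm alone. Of 19 markers, 5 were tested, 1 rose and 2 fell, with a median log2 fold change of -0.51. Of all tested loci 12.8% rose and 12.4% fell. The summed FPKM of the list ran from 31.4 to 39.6 in null and from 32.5 to 34.4 in control libraries. Of these markers 1 fell without control replicate 3, 3 fell without null replicate 1, and 0 fell with a minimum of 5 FPKM. Srgn, a proteoglycan abundant in parietal endoderm, was at 1.83, 0.600 and 0.328 FPKM in null libraries and at 4.10, 4.97 and 3.13 FPKM in control libraries (log2 fold change -1.46, limma adjusted p = 0.00956). Cubn, an endocytic receptor of visceral endoderm, was at 0.916, 0.502 and 0.409 FPKM in null libraries and at 1.46, 1.54 and 2.03 FPKM in control libraries (-0.74, limma adjusted p = 0.0124). Dab2, an endocytic adaptor of primitive endoderm, was at 1.62, 1.02 and 0.903 FPKM in null libraries and at 1.72, 2.57 and 2.002 FPKM in control libraries, and missed the threshold (-0.51, limma adjusted p = 0.0518). The 3 genes were lower in every null library than in any control library, and they were highest in null replicate 1 among the null libraries, as were Lama1, Col4a1 and Col4a2. Lamb1 did not share this order: null replicate 1 was its lowest null library. Null replicate 1 was the highest of the 3 null libraries for 8 of the 12 matrix genes that fell, and for 45.6% of all loci that fell. Whether a shared order among 3 libraries links these genes was not tested.

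Lrp2, the partner receptor of Cubn, which rose, was at 25.3 ± 1.84 FPKM in null and 18.4 ± 0.33 FPKM in control libraries and makes up most of the marker sum. The transcription factor Gata4 was at 1.87, 1.61 and 1.92 FPKM in null libraries and at 1.80, 1.55 and 1.58 FPKM in control libraries, without a call. Sox17 was at 0.249, 0.0375 and 0.0820 FPKM in null libraries and at 0.205, 0.413 and 0.247 FPKM in control libraries, and Sox7 at 0.436, 0.0358 and 0.0392 FPKM in null and at 0.391, 0.718 and 1.06 FPKM in control libraries. None of the 19 was at 0 in all libraries, but Afp, Ttr and Apoa1 were at 0 in all 3 null libraries. The markers under the minimum went both ways. Hnf4a was at 0.876 ± 0.306 FPKM in null and 0.519 ± 0.190 FPKM in control libraries. Cited1 was at 0.873 ± 0.579 and 0.373 ± 0.154 FPKM in the same order, and Thbd at 0.659 ± 0.238 and 0.520 ± 0.156 FPKM. Each of these overlapped between the groups. Pdgfra and Gata6 had a lower mean in null libraries. The part of endoderm cells in the falls of Lama1, Lamb1, Col4a1 and Col4a2 was not tested.

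Collagen I is a product of fibroblasts, which are used as feeder layers for ES cells, and fibroblast markers outside the 67 genes were therefore read too. Of 18 markers 6 were tested, 1 rose and 2 fell, with a median log2 fold change of -0.24. Of all tested loci 12.8% rose and 12.4% fell. The summed FPKM of the list ran from 17.1 to 23.2 in null and from 25.6 to 28.8 in control libraries. Thy1 rose, at 2.98 ± 0.141 FPKM in null and 1.65 ± 0.492 FPKM in control libraries. Acta2, smooth muscle actin, was at 0.821, 2.04 and 2.33 FPKM in null libraries and at 4.30, 2.97 and 4.52 FPKM in control libraries, and Tagln, transgelin, at 3.08, 7.31 and 4.17 FPKM in null and at 8.17, 8.29 and 9.94 FPKM in control libraries. Both fell (limma adjusted p = 0.0331 for Acta2 and 0.0444 for Tagln), but with a replicate block, without a minimum, or without control replicate 1 or 3, 0 of the markers fell, and without any other single library 1 did. Thy1 was no longer called without null replicate 2 or 3. The other 3 tested markers were not called: Mmp2 was at 5.16 ± 0.921 FPKM in null and 5.85 ± 0.591 FPKM in control libraries, Cd34 at 1.96 ± 0.771 and 2.61 ± 0.355 FPKM in the same order, and Twist1 at 1.31 ± 0.221 and 1.45 ± 0.0668 FPKM. Among the 12 markers under the minimum, Fap was at 0 in all 6 libraries, Lum in 5 of 6 and Dcn in 4 of 6. Postn was at 0 in each null library and at 0.0819, 0.0752 and 0.0822 FPKM in control libraries. Ccl2 was at 0 in every library but control replicate 1. Pdgfrb was at 0.428 ± 0.0967 FPKM in null and 0.322 ± 0.0797 FPKM in control libraries. Igfbp7 was at 0.425 ± 0.143 and 0.771 ± 0.358 FPKM in the same order. Fbln2, S100a4 and Twist2 had a higher mean in null libraries, and Prrx1 and Snai2 a lower one. The part of fibroblasts in the fall of Col1a1 and Col1a2 was not tested.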

How the data were processed

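Per the labels' protocols, ribosomal RNA was removed from the total RNA of the 6 ES cell samples before library preparation. TopHat, Cuffdiff, FastQC and Trim Galore, with build mm10, appear in the submitters' processing notes. Their versions, settings and use of strand are not given. The deposited values were taken as FPKM made by the authors: they are not whole, their totals differ between libraries, and no header states the unit. Limma 3.58.1 in R 4.3.3 was fitted to log2(FPKM + 1) of the loci that averaged 1 FPKM or more, with a mean-variance trend, no covariate and Benjamini-Hochberg adjustment over all loci at 0.05. Fold changes on this scale understate those of low genes. The test was tried on simulated data. No raw counts were used. Relative depth, and fragments of low genes, came from the steps between low FPKM values, accepted within 0.02 of a whole number in every library; 34 of 39 genes under the minimum passed. For Col1a1 a doubled reading also gives whole numbers; the smaller one is given, with the wider interval. Exon overlap was read from GENCODE M21: 8 tested matrix genes share exon bases with a gene on the other strand. Of these, 4 were called: Fn1, Nid1, Col4a1 and Col4a2. Promoters are from RefSeq on GRCm38.p6. Genes named are the tested members, members with a group mean of at least 0.2 FPKM and up to 4 genes per list past the threshold; others, such as the markers at or near 0, were named after their values were seen. Of the tested matrix genes, 1 is counted but not reported here by name. Members and lists were chosen with earlier results of these data known. Replicate numbers were not taken to pair the libraries. Same-numbered libraries' deviations from their group means correlated at -0.00242, 0.108 and 0.0527, and those of other pairs at -0.222 to 0.163. With 3 libraries per group these values show no pairing but cannot exclude one.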

Additional observations from a re-analysis of the deposited data

How the results depend on the processing

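Of the 16 matrix genes called, 15 kept their direction and their call in all alternatives that test them, and Nid1 lost its call without control replicate 1 or 2. No tested matrix gene changed direction. P4ha2 passed with a pseudocount of 0.1 (adjusted p = 0.049), with a replicate block (0.0447) and without null replicate 2 (0.017). Leaving out 1 library at a time gave 4 matrix genes higher each time and 11 to 13 lower; by role, basement membrane genes had 2 higher and 7 to 8 lower, fibrillar collagens 0 and 0, other collagens with fibronectin 2 and 1, and synthesis genes 0 and 3 to 4. Over all loci it gave 930 to 1472 higher, against 1468 in the full set, and 789 to 1442 lower, against 1426, with drops of over 1.5 times without each control library (control replicate 3 only for the lower ones, at 891). Over the related lists it gave 5 to 10 higher and 13 to 22 lower, and a minimum of 5 FPKM gave 6 and 13, since fewer genes are tested. Fibrillar collagens had 1 higher without a mean-variance trend, and 2 lower without a minimum, or with a minimum of 0.2 FPKM or no minimum with a pseudocount of 0.1, both added after seeing the data. Other collagens had 1 higher with a minimum of 5 FPKM. Summed synthesis genes were at 77.9 FPKM in null and 167 FPKM in control libraries with the Plod3 locus and at 64.9 and 81.7 FPKM without it, a choice made after seeing the data. A replicate block, although the numbers were not taken to pair the libraries, gave 1190 loci higher and 1074 lower. Median centring gave 1718 higher and 1214 lower over all loci. Genes with group means under 0.2 FPKM rest on few fragments, which limits what differences could be detected there.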
